A study of Mus musculus with 10 samples.

Results

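Rbm3 and Cirbp encode a pair of closely related RNA-binding proteins whose transcripts are raised by mild cooling, and their levels in the ageing mouse hypothalamus are described here. They are 2 of the 19505 genes with a named probe set in the series. Hypothalamic mRNA was measured in 10 arrays, 5 from Old and 5 from Young male mice of the inbred strain C57BL/6J. The Old mice were 138 weeks old and the Young mice 24 weeks old. All were kept at 23°C on a cycle of 12 h light and 12 h dark with free access to food and water. No genetic change or treatment is named for either group. Both genes were selected on earlier results of this same comparison, so their Old and Young values are given as a description, with no test. Each gene has 1 probe set on the array, so no choice among probe sets was needed.

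As background, RBM3 and CIRBP (also called CIRP) each join an RNA-recognition motif to a glycine-rich tail and bind many messenger RNAs. Both are cold-shock proteins: their transcripts go up when mammalian cells or the brain cool by a few degrees and go down at fever temperatures, the opposite of the heat shock chaperones. In mice, RBM3 has been tied to the regrowth of synapses after cooling, and CIRBP, which follows the daily cycle of body temperature, binds transcripts of the circadian clock in fibroblasts. The hypothalamus holds the neurons that set body temperature. The sources used here give neither body temperature nor the hour of tissue collection, so the name "cold-induced" is the genes' history and not a condition of these samples.

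The Cirbp start region is shown because a short element in it has been described as a mild-cold response element of the mouse gene. Of the 2 genes, 1 (Cirbp) matched the RefSeq table of start regions and Rbm3 did not. RefSeq (GRCm38.p6) gives 2 start regions for Cirbp, each from 250 bases before to 50 bases after a start, on the plus strand of chromosome 10. The upstream window, chr10:80167589-80167888, carries that element, TCCCCGCC, beginning 247 bases before the start. In the sequence below, 5′ to 3′, capitals mark every match to the motifs searched.
Cirbp upstream window: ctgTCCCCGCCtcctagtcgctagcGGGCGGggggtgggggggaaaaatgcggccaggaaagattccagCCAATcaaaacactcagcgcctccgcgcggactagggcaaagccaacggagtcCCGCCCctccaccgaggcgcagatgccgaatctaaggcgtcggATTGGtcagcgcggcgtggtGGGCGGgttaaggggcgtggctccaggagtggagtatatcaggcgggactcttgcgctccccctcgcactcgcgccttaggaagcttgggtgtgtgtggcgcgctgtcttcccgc
Besides TCCCCGCC, the capitals mark 3 GC boxes (GGGCGG, 1 of them on the minus strand) and 2 CCAAT boxes (CCAAT, 1 of them on the minus strand). No match overlaps another. The cAMP response element TGACGTCA, the E-box CACGTG and the heat shock half-element GAANNTTC were searched on both strands and have no match in this window. The other window, chr10:80167921-80168220, holds 4 matches to GGGCGG and none to the other motifs. Among the 32851 RefSeq start regions of the same length, 5.38% hold TCCCCGCC on either strand, 35.7% hold GGGCGG and 37.4% hold CCAAT. The upstream window is 65.7% G or C, against 53.8% over all start regions. These matches describe the letters of the window and say nothing of binding in these samples.

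Rbm3 was higher in every Old array than in any Young one. Its log2 signal was 9.96, 10.11, 9.96, 9.80 and 10.12 in Old 1 to Old 5, against 8.92, 9.44, 8.85, 9.48 and 9.34 in Young 1 to Young 5. The 2 groups did not overlap: the lowest Old array, Old 4, lay 0.32 log2 above the highest Young array, Young 4. Means were 9.99 ± 0.13 in Old and 9.21 ± 0.30 log2 in Young (SD, n = 5 each), a difference of 0.78 (SE 0.15), or 1.72-fold. The Young arrays were the more scattered, with Young 1 and Young 3 low and the other 3 close together.

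Cirbp was also higher in Old, by less, and its groups overlapped. Its log2 signal was 8.85, 8.87, 8.80, 8.65 and 8.83 in Old 1 to Old 5, against 8.45, 8.62, 8.48, 8.67 and 8.69 in Young 1 to Young 5. Old 4 was the only Old array to lie among the Young ones, below Young 4 and Young 5. The other 4 Old arrays lay above all 5 Young arrays. Means were 8.80 ± 0.088 in Old and 8.58 ± 0.11 log2 in Young (SD, n = 5 each), a difference of 0.22 (SE 0.063), or 1.16-fold. Young 1 and Young 3 were the lowest arrays of the Young group here too.

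**Figure D1:**
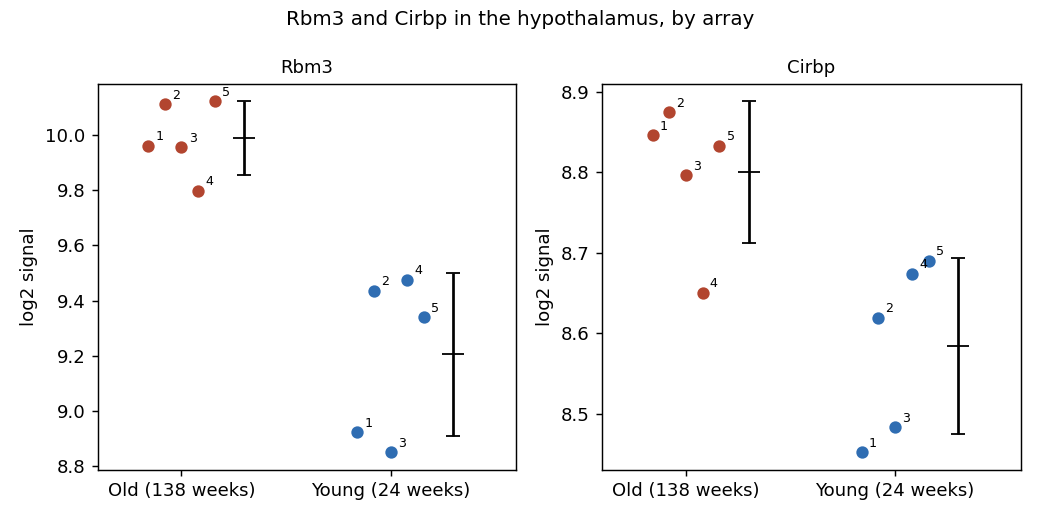
Log2 signal of Rbm3 (left) and Cirbp (right) in each array, numbered by replicate, with Old left of Young. Bars show the mean and SD of 5 arrays. The Old and Young arrays of Rbm3 do not overlap, while Old 4 lies among the Young arrays of Cirbp.

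Of the 2 genes, 1 had groups that did not overlap, with Old higher. The same held for 57 of 276 varying genes (20.7%), and since the genes were chosen on this contrast, nothing is read from that count. Varying genes are those whose log2 signal had an SD of at least 0.01 over the 10 arrays. The distinction matters because 97.9% of the 22206 deposited probe sets had an SD of about 1e-05 log2 or less. Such collapsed values give a level but cannot show the size of a difference, and how far the differences of varying genes were also shrunk is unknown. Rbm3 had the 15th largest SD of all genes, 0.443 log2, and Cirbp the 115th, 0.140 log2. By the size of the rise in Old, Rbm3 stood 7th among the varying genes. It lay just below Serpina3n (0.81), a protease inhibitor of reactive astrocytes, and just above C4a (0.78), a complement component. Cirbp stood 58th, between Hsd17b11 (0.22) and Atp1b3 (0.22).

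The neighbours of both genes on their chromosomes carried no measurable difference. Rbm3 lies on the X chromosome in RefSeq, between Was and Wdr13 on one side and Tbc1d25 and Ebp on the other. Cirbp lies between Atp5d and Midn on one side and Fam174c and Efna2 on the other. All 8 of these protein-coding neighbours were collapsed, so their values cannot show whether they changed with age.

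Within each age, arrays high for Rbm3 were high for Cirbp. With each age group's mean removed, Rbm3 was lowest in Young 3 (-0.35), Young 1 (-0.28) and Old 4 (-0.19) and highest in Young 4 (0.27) and Young 2 (0.23 log2). Cirbp was lowest in the same 3 arrays, Old 4 (-0.15), Young 1 (-0.13) and Young 3 (-0.10), and highest in Young 5 (0.11 log2). These deviations leave out the age difference by which the genes were chosen. Over the 10 arrays their Pearson r was 0.879 (exact permutation p = 0.00813, 2-sided, over the 14400 pairings within ages) and Spearman's rho was 0.794 (exact permutation p = 0.0208). This was the single relation tested, so no adjustment was made. A planned check left out Young 1 and Young 3, the arrays farthest from the median for Rbm3. There r was 0.739 and did not pass (exact permutation p = 0.0833, n = 8). Spearman's rho was 0.571 and did not pass either (exact permutation p = 0.208). Without Young 5 as well, a setting chosen after seeing the data, r was 0.867 (exact permutation p = 0.0333, n = 7). Whether the relation passed thus depended on which arrays were left out.

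**Figure D2:**
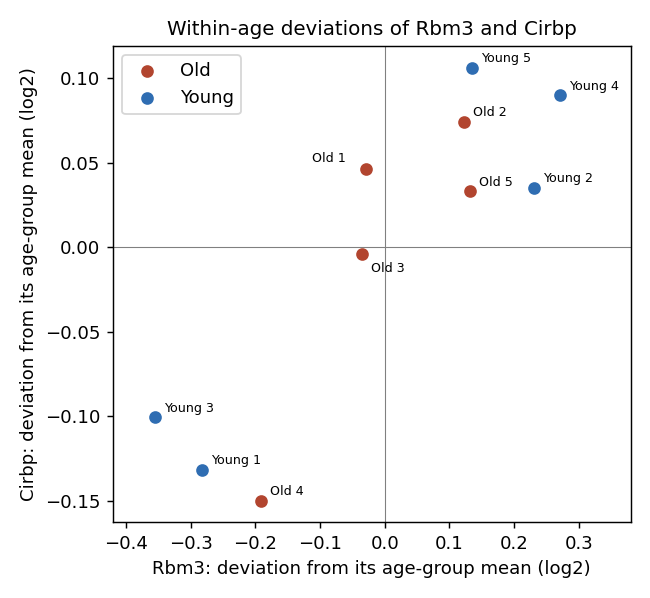
Deviation of each array from its own age-group mean, in log2, for Rbm3 (x axis) and Cirbp (y axis), with Old in red and Young in blue. Young 1, Young 3 and Old 4 sit at the lower left, and Young 2, Young 4, Young 5, Old 2 and Old 5 at the upper right.

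Of the varying genes, Cirbp was the one most like Rbm3 within ages, and Rbm3 the one most like Cirbp. The correlations that follow are measures of likeness over 10 arrays and have no p. After Cirbp, the genes most like Rbm3 were Amy1 (r = 0.695), Smyd3, a lysine methyltransferase (0.695), Pcdhb9, a beta protocadherin (0.692), and Eif4b, a translation initiation factor (0.653). After Rbm3, those most like Cirbp were Apoe, the lipid carrier apolipoprotein E (0.730), the translation elongation factor subunit Eef1g (0.680), Amy1 (0.663) and Srp54a (0.654). No other varying gene had an r over 0.7 with both. With the age difference left in, Rbm3 was again nearest to Cirbp (r = 0.943), followed by Pcdhb9 (0.942), Smyd3 (0.936) and the interferon-induced Ifit3b (0.917) and Ifit3 (0.914). Cirbp was nearest to Rbm3, then to Apoe (0.899), Pcdhb9 (0.855), Amy1 (0.838) and Luzp2 (0.831).

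The varying genes least like the pair within ages included several of myelin, with exceptions, and genes of other kinds. The lowest r with Rbm3 was that of Fa2h, which makes hydroxylated fatty acids of myelin lipids (-0.909), followed by Trf, the iron carrier transferrin (-0.890), and Dbndd2 (-0.881). The lowest with Cirbp were Anln, which encodes anillin (-0.939), Dbndd2 (-0.856) and Fa2h (-0.855). In all, 9 of 274 varying genes had an r under -0.7 with both, a limit set after the values were seen. They were Fa2h, Trf, Dbndd2, Anln, the tight-junction gene of myelin Cldn11, the myelin genes Mbp and Mobp, Ugt8a, which makes galactolipids of myelin, and the Fc receptor gene Fcgr3. Some genes outside myelin were under -0.7 with Rbm3 but not with Cirbp. For Rbm3 and for Cirbp, r was -0.80 and -0.63 for Mup19 and -0.75 and -0.56 for Mup2, a liver transcript. It was -0.77 and -0.54 for Fam107a and -0.76 and -0.46 for Sgk1. Other varying genes of the oligodendrocyte lineage did not meet that limit, some by little. For Rbm3 and for Cirbp, r was -0.59 and -0.69 for Ermn and -0.59 and -0.64 for Tcf7l2. It was -0.56 and -0.45 for Gatm and -0.51 and -0.25 for Mal. Nearest to 0 of those named here were Bcas1 (-0.14 and -0.43) and Gpr17 (-0.09 and -0.36). These genes were picked after their values were seen. The age differences of the 9 genes pointed both ways: 6 were higher and 3 lower in Old. Fcgr3 was higher by 0.50 (SE 0.074) and Anln by 0.27 (SE 0.093), while Cldn11 differed by -0.24 (SE 0.057) and Fa2h by -0.21 (SE 0.064).

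**Figure D3:**
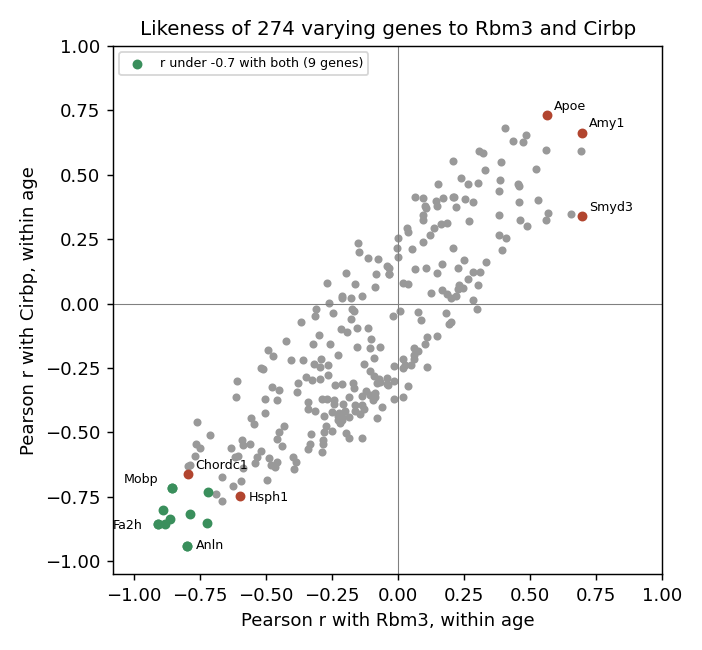
Pearson r of 274 varying genes with Rbm3 (x axis) and with Cirbp (y axis), computed over 10 arrays after each age group's mean was removed. The 9 genes with an r under -0.7 with both, in green, lie at the lower left, among them Fa2h, Mobp and Anln. Apoe, Amy1 and Smyd3 lie at the upper right.

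Among 7 oligodendrocyte markers, 6 were measured and 3 varied (Mbp, Mobp and Cldn11). Mbp and Mobp were higher in Old by 0.08 (SE 0.034) and 0.10 (SE 0.038) and did not pass. Cldn11 fell in the varying genes (adjusted p = 0.00828; 0.264 in the fit of all genes), and its groups did not overlap. The mean of the 3 ran from 10.18 to 10.29 log2 in Old and from 10.17 to 10.37 in Young, a range in which these opposite differences partly cancel. Within ages the mean was highest in Young 3 (0.11 above the Young mean) and Old 4 (0.058 above the Old mean), the arrays of each age with the lowest Rbm3. Its r was -0.900 with Rbm3 and -0.851 with Cirbp. The part of oligodendrocyte content in the levels of Rbm3 and Cirbp was not tested. In whole tissue, fewer cells of a type and less RNA per cell cannot be told apart.

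**Figure D4:**
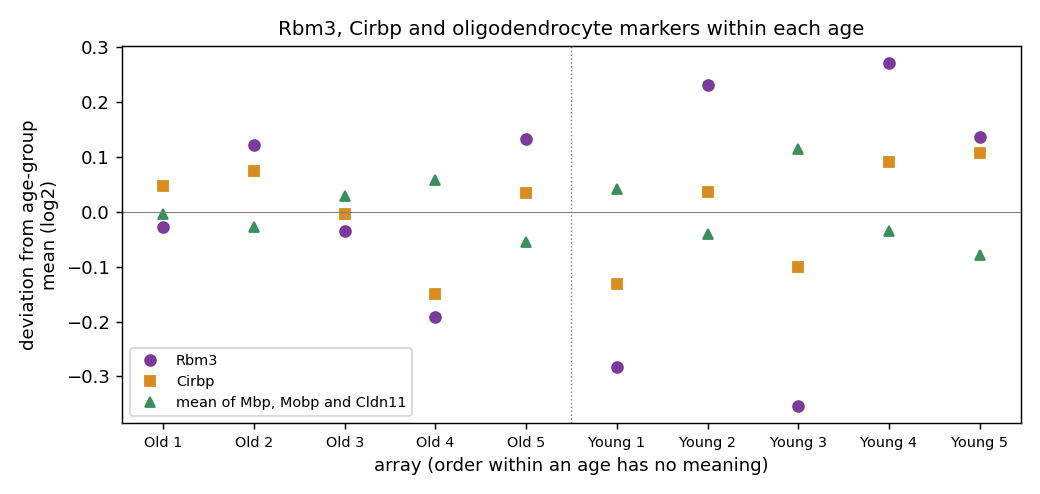
Deviation from the age-group mean, in log2, for Rbm3 (circles), Cirbp (squares) and the mean of the oligodendrocyte markers Mbp, Mobp and Cldn11 (triangles) in each array. In Old 3, Old 4, Young 1 and Young 3 the triangles lie above 0 and both genes below, in Old 3 by little. In Old 2, Old 5, Young 2, Young 4 and Young 5 the order is turned.

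Other cell markers moved with age or with single arrays, and their part in the 2 genes was not tested. The choroid plexus list had 6 varying of 8 measured markers, with a mean from 6.60 to 6.77 log2 in Old and from 6.63 to 8.50 in Young. The high value was Young 5, where Ttr, the transthyretin of choroid plexus, reached 12.44 log2. Young 3, the lowest array for Rbm3, had the liver transcript Mup2 at 7.35 log2, against at most 6.39 in the other 9 arrays. Without Young 3 and Young 5, the differences were 0.71 for Rbm3 and 0.22 for Cirbp. Of 7 measured microglial markers, C1qa and C1qb varied, with a mean from 8.06 to 8.33 in Old and from 7.83 to 7.95 in Young. The 5 varying of 8 measured astrocyte markers had a mean from 9.75 to 9.91 in Old and from 9.90 to 9.96 in Young. That mean joins opposite differences: Gfap was higher in Old by 0.44, while Kcnj10 differed by -0.48 and Ntsr2 by -0.30. The groups of none of the 3 overlapped, and all 3 passed in the fit of all genes (adjusted p = 0.0396, 0.0104 and 0.00241). Gja1 differed by -0.14 and fell in the varying genes (adjusted p = 0.0353), but did not pass in the fit of all genes (adjusted p = 0.525). The mean of 2 varying of 6 endothelial markers ran from 8.59 to 8.98 in Old and from 8.57 to 8.66 in Young. None of the 9 neuronal markers varied. Of the 12 hypothalamic peptide genes, all were measured and 6 varied. In the varying genes Avp, which encodes vasopressin, rose by 0.62 (adjusted p = 0.00353), with no overlap between groups; in the fit of all genes it did not pass (adjusted p = 0.182). Sst, which encodes somatostatin, differed by -0.16 and fell in the varying genes (adjusted p = 0.0272). It did not pass in the fit of all genes (adjusted p = 0.465). Pmch, which encodes melanin-concentrating hormone, lay far above the array medians of about 6.78 log2 in both ages, at 10.39 ± 0.086 in Old and 10.32 ± 0.087 log2 in Young (SD, n = 5 each).

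Heat shock genes, many of which respond to temperature in the opposite direction to Rbm3 and Cirbp, were examined in the fit of Old against Young. Their list was chosen with earlier results of these data known, so the calls below are no independent test. Of 20 measured members, 4 varied, and all 4 were lower in Old: Hsph1, Chordc1, Hspa5 and Dnajb1. Over all 276 varying genes, 145 were lower in Old, so little can be read from the direction of 4 genes. In the fit over all genes 0 members rose and 0 fell. In the fit to the 276 varying genes 2 fell and 0 rose. The median difference of the 4 was -0.15, against -0.02 over the 276 varying genes and 0.00 over the 20 measured members.

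Hsph1, which encodes the large co-chaperone Hsp105, had 9.96, 10.08, 10.07, 10.23 and 10.09 log2 in Old 1 to Old 5, against 10.38, 10.20, 10.38, 10.33 and 10.26 in Young 1 to Young 5. Old 4 alone overlapped the Young arrays, just above Young 2. The difference was -0.22 (SE 0.053). Its adjusted p (limma) was 0.00874 in the varying genes, where it fell, and 0.265 in the fit of all genes, where it did not pass. Without Young 1 and Young 3 it was -0.18 and no longer passed (adjusted p = 0.0673). Chordc1, whose product CHORDC1 is a co-chaperone of Hsp90, had 8.58, 8.57, 8.69, 8.68 and 8.66 in Old 1 to Old 5, against 8.90, 8.72, 8.92, 8.73 and 8.86 in Young 1 to Young 5. All 5 Old arrays lay below all 5 Young arrays. The difference was -0.19 (SE 0.048). Its adjusted p was 0.0143 in the varying genes, where it fell, and 0.326 in the fit of all genes. In the varying genes it did not pass without Young 3 and Young 5 (-0.14, adjusted p = 0.0772) or without Young 1 and Young 3 (-0.13, adjusted p = 0.0851).

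Both genes also ran against Rbm3 and Cirbp within ages. The r of Chordc1 was -0.796 with Rbm3 and -0.662 with Cirbp, and the r of Hsph1 was -0.599 with Rbm3 and -0.745 with Cirbp. Young 1 and Young 3, the lowest Young arrays for Rbm3 and Cirbp, were the highest of all arrays for Chordc1 and Hsph1. How far these r rest on those arrays was not tested. The remaining varying members had a weaker r. It was -0.349 with Rbm3 and -0.285 with Cirbp for Hspa5, and -0.130 and -0.233 for Dnajb1. Neither of them passed in either fit. Hspa5, the chaperone BiP of the endoplasmic reticulum, averaged 11.09 ± 0.10 in Old and 11.19 ± 0.13 log2 in Young (SD, n = 5 each; adjusted p = 0.267 in the varying genes). Dnajb1, a co-chaperone of Hsp70, averaged 8.80 ± 0.014 in Old and 8.83 ± 0.011 log2 in Young (SD, n = 5 each; adjusted p = 0.361). The other 16 measured heat shock genes did not vary.

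**Figure D5:**
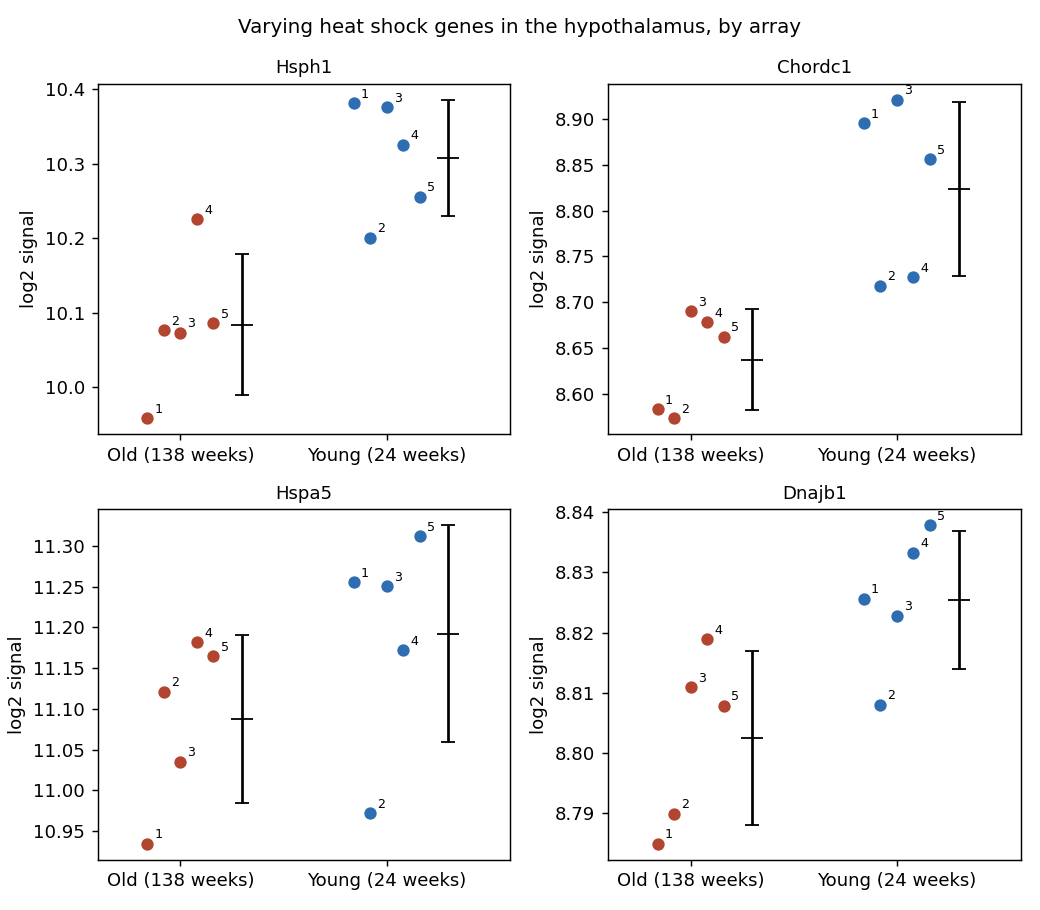
Log2 signal of the 4 varying heat shock genes in each array, numbered by replicate, with Old left of Young and bars for the mean and SD of 5 arrays. The groups of Chordc1 do not overlap. Old 4 is the highest Old array for Hsph1, Hspa5 and Dnajb1.

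The background of these calls differed widely between the fits. Over all 19505 genes, 37 rose (0.19%) and 6 fell (0.0308%), so 0 called of 20 heat shock genes is no sign of stability. In the varying genes, 68 of 276 rose (24.6%) and 31 fell (11.2%). The share of varying genes whose groups did not overlap with Old lower, as for Chordc1 and Cldn11, was not counted. Genes were counted as varying by their spread over all arrays, the age difference included, which favours genes that differ between ages.

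The known regulators and partners of the 2 genes gave levels but no measurable difference. All 16 listed were measured and 0 varied. They include Ntrk2, the BDNF receptor that acts upstream of Rbm3 in cooled mouse neurons; Rtn3, a reticulon whose translation RBM3 raises; Clock, a transcript bound by CIRBP; Tlr4 and Ly96, receptor subunits for extracellular CIRBP; and Hnrnph1, a splicing factor. None of 7 measured cold-shock domain genes varied, and none of 28 measured hnRNP and glycine-rich relatives, among them Rbmx. None of 19 measured circadian clock genes varied either.

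Of 18 measured SR proteins and their kinases, 1 varied: Clk4, a kinase of splicing factors. It averaged 8.42 ± 0.11 in Old and 8.34 ± 0.042 log2 in Young (SD, n = 5 each), a difference of 0.08 (SE 0.050, adjusted p = 0.204 in the varying genes). Its r within ages was 0.060 with Rbm3 and -0.197 with Cirbp. Of 17 measured genes tied to hypothalamic temperature control, 2 varied, both neuropeptide genes. Hcrt, the orexin precursor, averaged 8.99 ± 0.070 in Old and 9.08 ± 0.099 log2 in Young (SD, n = 5 each; adjusted p = 0.187), and Trh, the thyrotropin-releasing hormone precursor, averaged 8.54 ± 0.082 in Old and 8.59 ± 0.13 log2 in Young (SD, n = 5 each; adjusted p = 0.617). Over all lists, 122 genes were measured and 7 varied, against 276 of all 19505 genes, so a list with 0 varying genes is no result about its members. In limma's fit over all genes 0 listed genes passed in either direction, 5 higher and 8 lower had an unadjusted p under 0.05, and the unmoderated linear model called 0. Those 13 genes are 10.7% of the listed genes, against 6.82% of all genes, and 10 of the 13 did not vary, so their values cannot show a change.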

How the data were processed

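Total RNA from hypothalamus (100 ng per sample) was made into biotin-labelled cDNA for Clariom S Mouse arrays, per the labels. The authors deposited 1 value per probe set and array, read here as log2 signal from its range of 5.00 to 12.97; the base is not named, so folds rest on that reading. How the authors corrected background, normalized and summarised the arrays is not stated in these sources. Array medians lay between 6.778 and 6.783. Precision is limited by the number of arrays, which the labels do not tie to separate animals: the spread behind each p-value may be technical. No 2 arrays were identical. Slides and scan dates were not used.

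Of the probe sets, 19572 have 1 gene symbol, 0 several and 2634 none in the platform annotation, and all 19572 identifiers matched RefSeq. The probe set with the highest mean was kept per gene. Old was compared with Young by limma 3.58.1 in R 4.3.3 (lmFit and eBayes, 2-sided, Benjamini-Hochberg, threshold 0.05) over all genes and over varying genes (SD of at least 0.01). "Rose" and "fell" name genes past that threshold in the fit given. SEs are those of the fit to varying genes, or of the group variances for Rbm3 and Cirbp. The fits were also run on simulated data with noise drawn independently for each gene and array. Those data hold no effect shared by the genes of an array, and the outcome is not given here. The genes and lists were chosen with earlier results of these data known. Named genes are the pair, list genes that vary, the genes most and least like the pair, and their neighbours in the order of differences. Alternatives covered scaling, the genes fitted, the prior, left-out arrays and a replicate block. Listed symbols that matched no probe set are not analysed here.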

Additional observations from a re-analysis of the deposited data

How the results depend on the processing

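The differences of Rbm3 and Cirbp kept their sign and moved by less than the spread between arrays in the 15 alternatives that could move them; with 1 probe set per gene and equal replicate numbers, the mean of all probe sets and the replicate block could not. The limit for this was the pooled SD within ages, 0.23 for Rbm3 and 0.10 log2 for Cirbp. The smallest differences, 0.57 for Rbm3 and 0.14 for Cirbp, came without Young 1 and Young 3. Leaving out single arrays gave 0.70 to 0.85 for Rbm3 and 0.18 to 0.25 for Cirbp, and within-age r of 0.839 to 0.906 (exact permutation p from 0.00799 to 0.0406). The correlation was lost only without Young 1 and Young 3 (r = 0.739, exact permutation p = 0.0833, n = 8), and the cause was not tested; it passed without Young 3 and Young 5 (r = 0.903, exact permutation p = 0.0111, n = 8). The call of Hsph1 in the varying genes ended in 1 of 13 alternatives and that of Chordc1 in 2 of 13. Over all genes 37 rose and 6 fell. Counts were 154 and 6464 with quantile normalization, which moves collapsed values, 68 and 31 in the varying genes, 65 and 28 at an SD of at least 0.05, 22 and 2 without Young 3 and Young 5, and 16 and 1 without Young 1 and Young 3. A trended robust prior gave 10 lower. Single arrays left out gave 25 to 37 and 4 to 9. Of listed genes, 0 rose and 0 fell over all genes, also with any single array left out; 1 and 54 did with quantile normalization, and 2 fell both in the varying genes and at an SD of at least 0.05. A replicate block gave 10 and 1 genes; the differences of Rbm3 (0.78) and Cirbp (0.22) are the same under it by construction. The labels do not say whether equal replicate numbers mark pairs. With age-group means removed, same-numbered arrays correlated from -0.219 to 0.281 over varying genes, and 1 of 10 arrays correlated best with its own number. Such values cannot exclude a pairing. With 1 named probe set per gene in the table, the alternative of another probe set for either gene could not be run. For the correlation, leaving out the 2 arrays farthest from the median for Rbm3 was planned, and these were Young 1 and Young 3. For the other results the alternative without Young 1 and Young 3 was chosen after seeing the data. So were the correlation without Young 1, Young 3 and Young 5 and the limit of an SD of at least 0.05. Collapsed values limit every statement on genes that do not vary.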
